A study of Homo sapiens with 12 samples.

Results

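The integrated stress response transcription factors and their feedback genes were followed in DLD1 cells, an established human colon cancer line. The 10 genes were taken by symbol, namely ATF4, ATF3, ATF5, DDIT3, CEBPB, CEBPG, JDP2, NUPR1, TRIB3 and PPP1R15A. All 10 were found among the 26485 gene symbols counted, and all 10 were among the 13619 genes with enough reads to be tested. Poly(A) RNA was sequenced after 1 h in 4 groups of 3 libraries: DMSO, the vehicle, and 10 µM each of TCDD, kynurenine (labelled Kyn) and CH223191. The libraries of CH223191 are labelled CH, its full name stands in the series title, and the labels' extraction protocol lists DMSO, TCDD and Kyn without it. TCDD, a dioxin, strongly activates the aryl hydrocarbon receptor (AHR). Kynurenine is made from tryptophan in the body and also activates it, and CH223191 is a laboratory compound that blocks it. The question was how early exposure to each compound changed the regulators of this response.

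In the integrated stress response, stress-sensing kinases phosphorylate the translation initiation factor eIF2. General protein synthesis then falls while the messenger RNA of ATF4 is translated more, and ATF4 with its bZIP partners switches on genes for amino acid supply, redox control and cell fate. Several of those genes feed back: PPP1R15A (GADD34) brings a phosphatase to eIF2, and TRIB3 and DDIT3 (CHOP) modify the output of ATF4. RNA counts measure transcript levels and not the translation of ATF4.

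Libraries held 21397703 to 28247146 reads counted on genes (median 26666641). The known AHR target CYP1A1 was at 3.22 ± 0.142 CPM (read counts scaled to library depth; SD, n = 3) in DMSO. It was at 428 ± 15.9 CPM with TCDD, 10.1 ± 1.01 CPM with Kyn and 0.520 ± 0.188 CPM with CH223191. The other AHR targets checked, CYP1B1, AHRR and TIPARP, rose with TCDD (log2 2.36, 1.901 and 1.72) and fell with CH223191 (-1.33, -1.34 and -0.40; edgeR against DMSO). With Kyn they went against CYP1A1: CYP1B1 (-0.37, adjusted p = 2.44e-07) and TIPARP (-0.21, adjusted p = 0.0271) fell, and AHRR was at -0.28 (adjusted p = 0.553). Of 8 colon epithelial markers, KRT8 (at least 4324 CPM), EPCAM (at least 1199 CPM) and CDH1 (at least 723 CPM) were high in every library. VIL1 stayed at or below 2.97 CPM and CDX1 at or below 0.121 CPM. The summed level of 6 fibroblast markers was 0.436 to 1.26 CPM and that of 5 endothelial markers 0.822 to 1.69 CPM over the 12 libraries, with DCN and KDR at 0 reads in all. For 6 immune markers the sum was 6.14 to 16.2 CPM, of which LYZ made up to 10.4 CPM. In a bulk culture, a higher level in each cell and a larger share of cells with the RNA cannot be told apart. Separate cultures are not stated for the 3 libraries of a group, so p-values measure the spread between these libraries, which may be technical. The comparisons with DMSO share its 3 libraries and are not independent of one another.

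Most of the regulators rose with CH223191. Of the 10 genes, 8 rose and 1 fell with CH223191 against DMSO at an adjusted p under 0.05 (edgeR quasi-likelihood test, Benjamini-Hochberg adjustment over all tested genes). Over all 13619 genes 32.8% were called in this comparison, 15.9% higher and 16.9% lower. The median log2 fold change of the 10 genes was 0.82, and that of all tested genes was 0.00097. The 10 genes were chosen with earlier results of these data known, so these shares and medians do not test enrichment. ATF5 was the member that did not pass, and PPP1R15A was the one that fell.

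**Figure D1:**
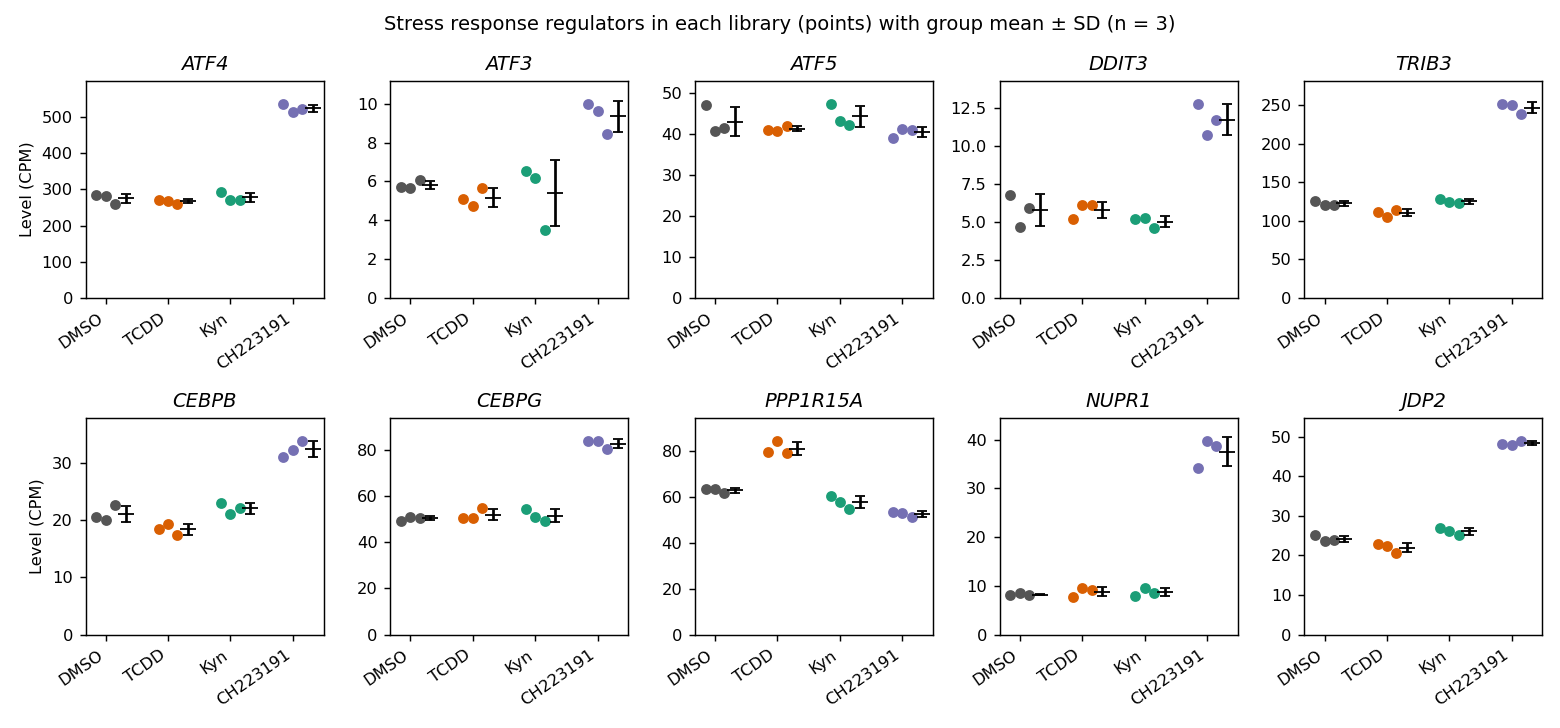
Level of each of the 10 genes in CPM (vertical axes from 0) in the 12 libraries, grouped by treatment; points are libraries and bars are the group mean ± SD (n = 3). The CH223191 libraries of 8 genes lie above all others, while PPP1R15A is highest with TCDD and ATF5 stays between 39.0 and 47.2 CPM.

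NUPR1, a small stress-induced chromatin protein, had the largest change of the 10 genes. It lies on chromosome 16 at 28532708 to 28539008 (hg38, gene models of GENCODE 44). Of its exonic bases, 909 (16.5%) are shared with a long noncoding RNA of the same strand that has no count of its own in the files, and the part of its reads in the NUPR1 value was not tested. The NUPR1 level was 8.12, 8.46 and 8.11 CPM in the DMSO libraries and 34.1, 39.7 and 38.7 CPM with CH223191. All CH223191 libraries were above every library of the other groups. The fold change was 4.55 (log2 2.19 ± 0.0772 SE, adjusted p = 1.03e-22). By size of rise NUPR1 was rank 10 of the 13619 tested genes. With TCDD it was at 7.73, 9.60 and 9.17 CPM and with Kyn at 8.02, 9.57 and 8.65 CPM, both overlapping DMSO.

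ATF4, the factor at the centre of the response, is on chromosome 22 at 39519695 to 39522683. Its transcript was at 284, 280.3 and 260.3 CPM in DMSO and at 535, 514 and 521 CPM with CH223191. The CH223191 libraries were clear of all others, and the change was 1.903-fold (log2 0.93 ± 0.0362 SE, adjusted p = 2.15e-21). The TCDD libraries held 271, 268 and 260.2 CPM and the Kyn libraries 293, 271 and 269.8 CPM, within or next to the DMSO range.

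DDIT3, or CHOP, a bZIP factor linked to cell death under prolonged stress, is a low transcript here, with 114 to 354 reads per library. It had 6.75, 4.66 and 5.95 CPM in DMSO and 12.7, 10.7 and 11.7 CPM with CH223191. These groups did not overlap, and the rise was 2.03-fold (log2 1.02 ± 0.107 SE, adjusted p = 1.9e-09). DDIT3 lies on chromosome 12 at 57516588 to 57521737, and 355 of its 1307 exonic bases are shared with the methionyl-tRNA synthetase gene MARS on the opposite strand. MARS rose with CH223191 too, from 172 ± 5.38 to 253 ± 2.73 CPM (log2 0.55, adjusted p = 5.57e-16, edgeR). Whether counting used strand is not given in the sources used here. Reads that the counting set apart as ambiguous, 2.47% to 2.56% per library, entered the count of no gene. Whether reads from the shared bases were among them, or in the DDIT3 count, was not tested.

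TRIB3, a pseudokinase that binds ATF4 and restrains its activity, had 126, 121 and 121 CPM in DMSO. With CH223191 it had 251, 251 and 238 CPM. Its within-group SD, 0.045 on the log2 scale, was the smallest of the 10 genes, and the rise was 2.01-fold (log2 1.01 ± 0.0364 SE, adjusted p = 1.98e-22). TRIB3 lies on chromosome 20 at 362835 to 397559.

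JDP2, a bZIP repressor that pairs with JUN and ATF proteins, was at 25.1, 23.6 and 23.9 CPM in DMSO and at 48.1, 47.97 and 48.9 CPM with CH223191. The groups did not overlap, and the rise was 1.995-fold (log2 0.996 ± 0.04998 SE, adjusted p = 4.65e-18). The gene spans 75427716 to 75474111 on chromosome 14.

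The remaining bZIP genes rose as well. CEBPG, a partner with which ATF4 binds DNA, went from 50.4 ± 0.864 to 82.7 ± 1.94 CPM (SD, n = 3; 1.64-fold, adjusted p = 1.94e-15, edgeR). CEBPB, a C/EBP factor of inflammatory and metabolic genes, went from 21.1 ± 1.40 to 32.4 ± 1.39 CPM (SD, n = 3; 1.54-fold, adjusted p = 1.3e-10, edgeR). Its exons share 231 bases with the antisense RNA CEBPB-AS1, which went from 0.590 ± 0.139 to 1.16 ± 0.565 CPM (SD, n = 3; adjusted p = 0.0122, edgeR). ATF3, a stress-induced bZIP repressor, had 5.72, 5.64 and 6.06 CPM in DMSO and 9.97, 9.60 and 8.46 CPM with CH223191. The ATF3 groups did not overlap (1.62-fold, 95% interval of the log2 fold change 0.43 to 0.95, adjusted p = 5.72e-05). The 95% intervals of DDIT3 (0.80 to 1.24), TRIB3 (0.94 to 1.08), JDP2 (0.89 to 1.10) and ATF4 (0.85 to 1.00) on the log2 scale overlapped one another. The interval of ATF3 overlapped all 4, so no order by size of rise was read from the intervals among these 5 genes. NUPR1 (2.03 to 2.34) lay above them. Each of the 8 rises passed the test in all 18 alternative fits, which included each library left out in turn.

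PPP1R15A and ATF5 stood apart from the rest with CH223191. PPP1R15A, the regulatory subunit that directs phosphatase 1 to eIF2, is on chromosome 19 at 48872212 to 48876059. It was at 63.7, 63.5 and 61.8 CPM in DMSO and at 53.7, 53.0 and 51.3 CPM with CH223191. The groups did not overlap, and the log2 fold change was -0.26 ± 0.0437 SE (adjusted p = 1.74e-05). PPP1R15B, the constitutive subunit with the same role, also fell, with a log2 fold change of -0.14 (adjusted p = 0.00547, edgeR); it was picked out after its value was seen.

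ATF5, a factor related to ATF4 whose translation is controlled in a similar way, lies at 49928702 to 49933935 on chromosome 19. It had 47.0, 40.7 and 41.4 CPM in DMSO and 39.0, 41.3 and 41.0 CPM with CH223191. These overlapped, and the log2 fold change was -0.09 (95% interval -0.20 to 0.02, adjusted p = 0.198). The interval lies below the rise of each of the 8 other genes. ATF5 shares 565 of 2892 exonic bases with NUP62 on the opposite strand, and NUP62 fell with CH223191 (log2 -0.19, adjusted p = 0.000108, edgeR). The part of shared reads in the ATF5 value, or among the ambiguous reads, was not tested.

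**Figure D2:**
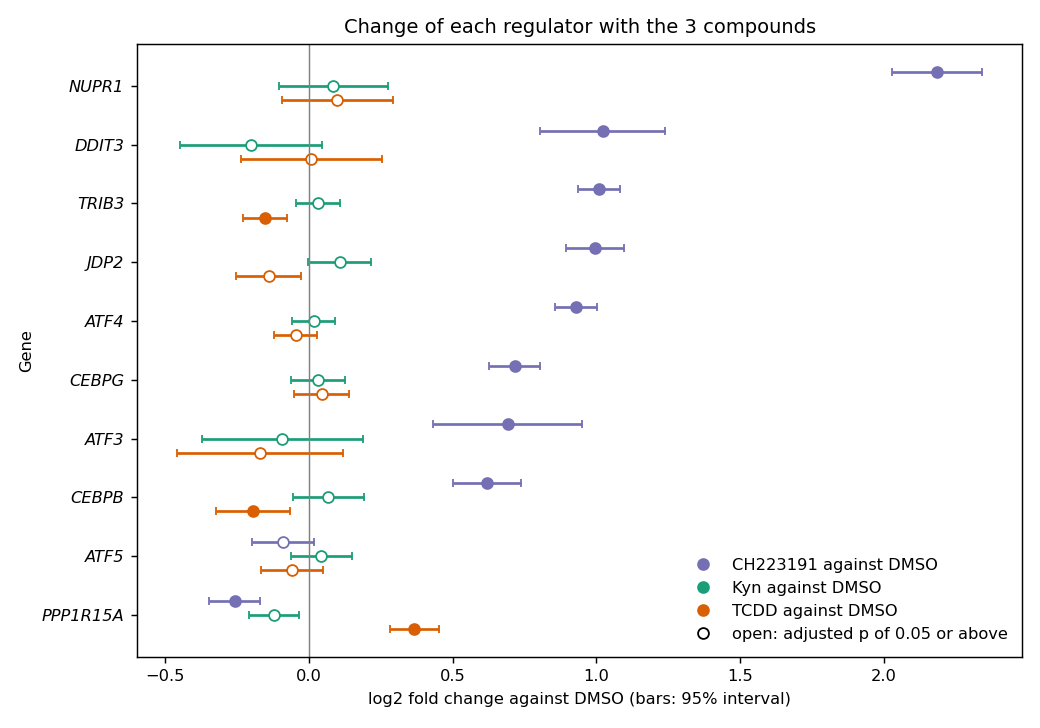
Log2 fold change of each gene against DMSO (horizontal axis) for CH223191, Kyn and TCDD, with 95% intervals; filled points had an adjusted p under 0.05. CH223191 points run from -0.26 for PPP1R15A to 2.19 for NUPR1, while those of Kyn and TCDD lie between -0.20 and 0.37.

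The members were also set against ATF4 in the same library. The log2 ratio of each gene to ATF4 was set to 0 at the DMSO mean. DDIT3 (mean 0.10 ± 0.0949 SD), TRIB3 (0.079 ± 0.0470) and JDP2 (0.068 ± 0.0337) had CH223191 libraries that overlapped the DMSO libraries (n = 3). NUPR1 stood above ATF4, at 1.09 to 1.37. CEBPG (-0.25 to -0.17), CEBPB (-0.40 to -0.24) and ATF3 (-0.38 to -0.18) were below it without overlap with DMSO. ATF5 (-1.10 to -0.96) and PPP1R15A (-1.22 to -1.15) were lowest with CH223191. PPP1R15A also left the DMSO range with TCDD (0.37 to 0.46) and with Kyn (-0.17 to -0.099). The ratios of the other genes overlapped DMSO with both of these compounds. With 3 libraries against 3, an exact permutation test of such a ratio cannot go below a two-sided p of 0.1, and none was run. The ratios are therefore given as ranges and set no order between ATF3 and ATF4, whose intervals of rise overlapped.

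**Figure D3:**
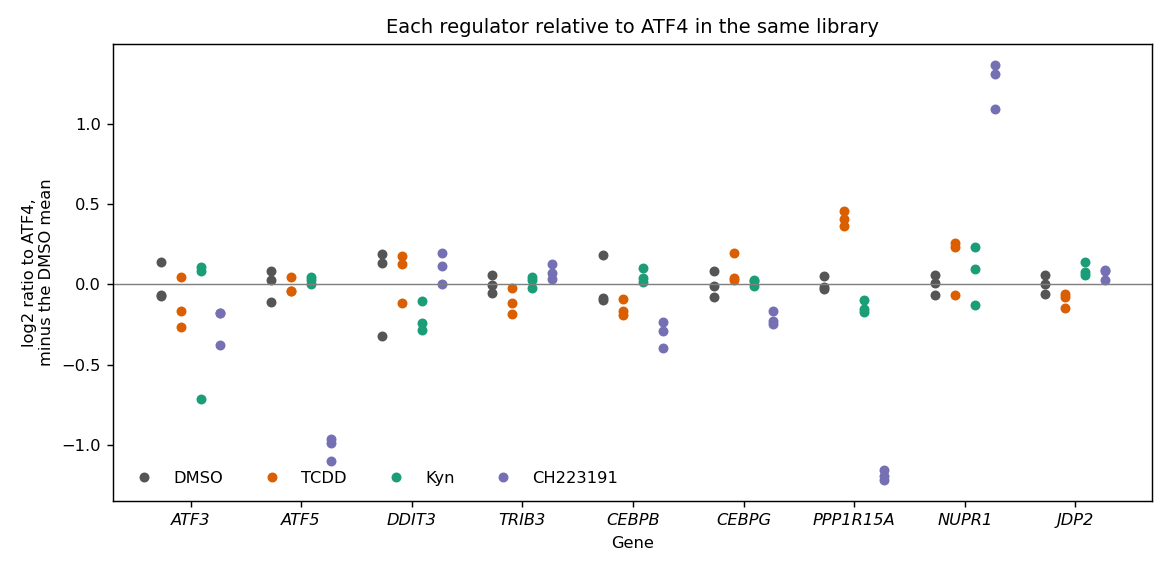
Log2 ratio of 9 genes to ATF4 in the same library, minus the mean of the DMSO libraries (vertical axis), by gene; points are libraries and colours are groups. With CH223191, NUPR1 lies at 1.09 to 1.37 and ATF5 and PPP1R15A lie at or below -0.96, while DDIT3, TRIB3 and JDP2 stay near 0.

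With TCDD against DMSO 1 member rose and 2 fell, which is 3 of 10 where 11.7% of all genes were called (5.91% higher and 5.83% lower). PPP1R15A was the member that rose. It had 79.9, 84.6 and 79.2 CPM with TCDD, above all DMSO libraries (1.29-fold, log2 0.37 ± 0.0422 SE, adjusted p = 7.45e-08). TRIB3 fell, with 111, 105 and 114 CPM (log2 -0.15 ± 0.0381 SE, adjusted p = 0.00621). Its call ended without TCDD replicate 2 (log2 -0.12, adjusted p = 0.0551).

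CEBPB fell as well, to 18.5, 19.3 and 17.5 CPM from 20.5, 20.0 and 22.6 CPM in DMSO (log2 -0.19 ± 0.0635 SE, adjusted p = 0.0397). That call ended in 7 of 18 alternative fits: by DESeq2 (adjusted p = 0.083), in a fit of the 6 libraries compared (0.0729), and without DMSO replicate 1 or 3, TCDD replicate 1 or 3 or CH replicate 2 (highest 0.243). JDP2 lay below DMSO in all 3 libraries, at 22.8, 22.4 and 20.7 CPM, but did not pass (log2 -0.14, adjusted p = 0.105). The 95% intervals of ATF4 (-0.12 to 0.03), CEBPG (-0.05 to 0.14) and ATF5 (-0.17 to 0.05) include 0 and lie within 0.2 of it. Those of DDIT3 (-0.24 to 0.25) and ATF3 (-0.46 to 0.12) leave room for larger changes.

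Kyn called 0 of the 10 genes by edgeR, with 1 at an unadjusted p under 0.05 and 0 called by DESeq2. Over all genes 0.294% were called in this comparison. The median log2 fold change was 0.032. The gene at an unadjusted p under 0.05 was PPP1R15A, at 60.4, 58.1 and 55.0 CPM, all below the DMSO libraries (log2 -0.12 ± 0.0431 SE, adjusted p = 0.438). For ATF4 the 95% interval was -0.06 to 0.09 and for TRIB3 -0.04 to 0.11. For JDP2 it was -0.0018 to 0.22. The Kyn libraries differed most among themselves for ATF3, which had 6.56, 6.17 and 3.47 CPM, the lowest on 86 reads. Without that library, Kyn replicate 3, the ATF3 log2 fold change was 0.13 in place of -0.09, and neither passed.

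The compounds were then set against each other directly. TCDD and CH223191 differed in 9 of 10 members, 1 higher and 8 lower with TCDD, where 37.1% of all genes were called (19.0% higher and 18.1% lower). PPP1R15A was 1.54-fold higher with TCDD than with CH223191 (log2 0.62 ± 0.0432 SE, adjusted p = 3.24e-14). NUPR1 was 4.25-fold lower (log2 -2.09, adjusted p = 3.35e-22), and TRIB3 was 2.24-fold lower (log2 -1.16, adjusted p = 3.48e-24). For ATF5 the log2 difference was 0.03 (95% interval -0.08 to 0.14, adjusted p = 0.704).

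Both agonists were also compared with each other. TCDD against Kyn called 4 members, with 9.19% of all genes called. PPP1R15A was higher with TCDD (log2 0.49 ± 0.0426 SE, adjusted p = 9.24e-11). TRIB3 (log2 -0.19), CEBPB (-0.26) and JDP2 (-0.25) were lower with TCDD (adjusted p = 0.00103, 0.0056 and 0.00285, edgeR). The CEBPB call ended without TCDD replicate 3 (adjusted p = 0.0578).

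Kyn and CH223191 differed in all 10 members, where 33.0% of all genes were called. The 8 genes that rose with CH223191 against DMSO, a comparison that shares the CH223191 libraries, were lower with Kyn, from -0.55 for CEBPB to -2.10 for NUPR1 on the log2 scale. PPP1R15A was higher with Kyn (log2 0.14, adjusted p = 0.0165) and so was ATF5 (0.13, adjusted p = 0.0494). The PPP1R15A call ended with library totals alone (adjusted p = 0.0576), without Kyn replicate 1 (0.107) and without CH replicate 3 (0.0636). The ATF5 call ended in 12 of 18 alternative fits, with 0.08 on the log2 scale and an adjusted p of 0.284 without Kyn replicate 1.

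Across the 4 groups 9 of 10 members differed in the joint test, where 43.6% of all genes were called. The exception was ATF5 (adjusted p = 0.128). By joint p TRIB3 was rank 12, NUPR1 rank 14, ATF4 rank 27 and JDP2 rank 45 of the 13619 genes. CH223191 had the highest mean in 8 members, and the next group below it differed from CH223191 in each. Below CH223191, the neighbouring means of ATF4, ATF3, DDIT3, CEBPG, NUPR1 and JDP2 did not pass the test. For TRIB3 and CEBPB the lowest mean, TCDD, passed against the next, DMSO. PPP1R15A ran from TCDD through DMSO and Kyn to CH223191, and of its neighbours DMSO and Kyn did not pass (adjusted p = 0.438).

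TRIB3 had the smallest joint p of the list, and the 5 genes whose profile lay closest to it were sought among 10233 other genes that averaged 5 CPM or more. Likeness was the root mean square difference of log2 CPM centred on each gene's mean, over 12 libraries. VEGFA, the angiogenic growth factor (0.053), was closest, followed by GPT2, a mitochondrial alanine transaminase (0.061). PHGDH (0.066) and PSAT1 (0.076), enzymes of serine synthesis, and CARS, the cysteinyl-tRNA synthetase (0.076), came next. Within the list JDP2 (0.065) and ATF4 (0.082) were nearest to TRIB3, and PPP1R15A (0.65) was farthest.

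Promoter letters were read from RefSeq sequences (GRCh38.p14) that run from 250 bases before to 50 after each annotated start, with 20 windows for 9 of the 10 genes. NUPR1 was not matched. The core of the C/EBP-ATF response element, TGATGNAA, on either strand, was found in 3 of the 20 windows, 1 each of CEBPG, JDP2 and ATF3, and in 3.62% of all 35116 windows. The cyclic AMP response element TGACGTCA, a palindrome, was found in 1 of the 20 windows, that of PPP1R15A, and in 1.85% of all windows. The core bound by AHR with its partner ARNT, GCGTG, was in 12 of the 20 windows, from 7 members, and in 36.5% of all windows. Windows of a gene can overlap and so repeat the same match. None of these letter matches shows binding. The stretches round the first 2 motifs are printed 5′ to 3′ on the plus strand, motif in capitals. CEBPG, JDP2 and ATF3 rose with CH223191 and PPP1R15A fell, and a link between motif and direction was not tested. The CEBPG and PPP1R15A stretches also hold the AHR core on the opposite strand, printed as cacgc in lower case.
CEBPG, chr19:33374011-33374112, motif 42 bases before the RefSeq start of its window: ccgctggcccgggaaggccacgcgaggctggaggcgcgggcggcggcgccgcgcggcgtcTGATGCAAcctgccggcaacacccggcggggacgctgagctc
JDP2, chr14:75427946-75428021, motif 16 bases before the RefSeq start of its window: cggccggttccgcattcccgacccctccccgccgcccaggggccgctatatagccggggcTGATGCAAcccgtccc
ATF3, chr1:212565157-212565283, motif 191 bases before the RefSeq start of its window: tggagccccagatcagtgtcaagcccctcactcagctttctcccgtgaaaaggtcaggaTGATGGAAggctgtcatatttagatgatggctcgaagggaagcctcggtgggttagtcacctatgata
PPP1R15A, chr19:48872352-48872381, motif 58 bases before the RefSeq start of its window: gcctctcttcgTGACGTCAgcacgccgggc

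The stretches of CEBPG, JDP2 and PPP1R15A lie inside the GENCODE span of their gene, ahead of a start further downstream, and all 30 bases of the PPP1R15A stretch are in annotated exons of that gene. The CEBPG and JDP2 stretches hold the same 8 letters, TGATGCAA, and ATF3 differs in the free position. JDP2 also has a further annotated start whose window lacks the motif. ATF4, ATF5, CEBPB, DDIT3, TRIB3 and PPP1R15A had no match to TGATGNAA in these windows. Of these, ATF4, CEBPB, DDIT3 and TRIB3 rose with CH223191, PPP1R15A fell and ATF5 did not pass.

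With CH223191, the share of calls among genes upstream of ATF4 was near that of all genes. Of 23 tested genes for stress sensors, eIF2, its exchange factor and its phosphatases, 3 rose and 4 fell with CH223191, where 32.8% of all genes were called, with a median log2 fold change of -0.022. EIF2S2, the beta subunit of eIF2 (log2 0.37, adjusted p = 5.87e-11), and IMPACT, an inhibitor of the sensor kinase GCN2 (0.35, adjusted p = 6.96e-06), rose by edgeR. EIF2S1, the alpha subunit that carries the regulatory phosphate, fell (-0.17, adjusted p = 0.000185, edgeR). With TCDD 1 of 23 rose and 0 fell, where 11.7% of all genes were called. It was DNAJC3, an inhibitor of eIF2 kinases (0.24, adjusted p = 1.36e-05, edgeR), for which CH223191 gave -0.09 (adjusted p = 0.0519). With Kyn 0 of 23 passed by edgeR, with 1 at an unadjusted p under 0.05 and 0 by DESeq2.

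Most of the listed target genes of ATF4 and CHOP rose with CH223191. Of 22 tested, 17 rose and 2 fell with CH223191, where 15.9% of all genes rose and 16.9% fell. The median log2 fold change was 0.98 against 0.00097 over all genes. The 2 that fell were GDF15 (-0.098, adjusted p = 0.0381) and ERO1A (-0.13, adjusted p = 0.0081, edgeR). The list does not separate targets of ATF4 from those of CHOP. It was chosen with earlier results of these data known, so these shares do not test enrichment. DDIT4, an inhibitor of mTORC1, rose from 51.5 ± 1.24 to 270.4 ± 10.8 CPM (SD, n = 3; log2 2.39, adjusted p = 6.94e-32, edgeR). ASNS, the asparagine synthetase (1.41), PCK2, the mitochondrial PEP carboxykinase (1.41), and PSAT1 (1.13) rose too. With TCDD 3 rose and 3 fell, where 11.7% of all genes were called, with a median of -0.00086. DDIT4 rose (0.58, adjusted p = 4.73e-12) and PCK2 fell (-0.18, adjusted p = 0.0028), while ASNS and PSAT1 did not pass. With Kyn 0 of 22 passed by edgeR, with 3 at an unadjusted p under 0.05 and 0 by DESeq2.

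Other bZIP and C/EBP genes, with a few genes listed beside them, were mixed. Of 22 tested, 7 rose and 5 fell with CH223191 (median 0.087), where 15.9% of all genes rose and 16.9% fell. The 22 include CEBPZ, TRIB1 and TRIB2, which are not bZIP factors, and of these TRIB1 rose and CEBPZ fell. XBP1, a factor of another branch of the unfolded protein response, rose from 149.5 ± 5.73 to 260.4 ± 0.308 CPM (SD, n = 3, log2 0.80, adjusted p = 1.98e-20, edgeR). Gene counts do not separate its spliced form. MAFK (-0.51) and MAFG (-0.25), small MAF partners, fell with CH223191. With TCDD 3 of 22 rose and 1 fell, where 11.7% of all genes were called. NFE2L2, or NRF2, rose with TCDD (0.26, adjusted p = 1.12e-06) and was at 0.0058 with CH223191 (adjusted p = 0.92). MAFG also rose with TCDD (0.21, adjusted p = 0.00259) and MAFK fell (-0.24, adjusted p = 0.0115, edgeR). With Kyn 0 of 22 passed by edgeR, with 3 at an unadjusted p under 0.05 and 0 by DESeq2.

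Genes of the XBP1 and ATF6 branches were mixed too. Of 16 tested, 2 rose and 5 fell with CH223191, where 15.9% of all genes rose and 16.9% fell, with a median log2 fold change of -0.044. HERPUD1, a component of protein degradation at the endoplasmic reticulum, rose (0.46, adjusted p = 6.32e-11, edgeR). SDF2L1 (-0.25), MANF (-0.11) and DNAJB11 (-0.12), all of the endoplasmic reticulum, fell. With TCDD 4 rose and 1 fell (median 0.044), where 11.7% of all genes were called, among them HERPUD1 (0.18, adjusted p = 0.00404, edgeR). With Kyn 0 of 16 passed by edgeR, with 4 at an unadjusted p under 0.05 and 0 by DESeq2.

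**Figure D4:**
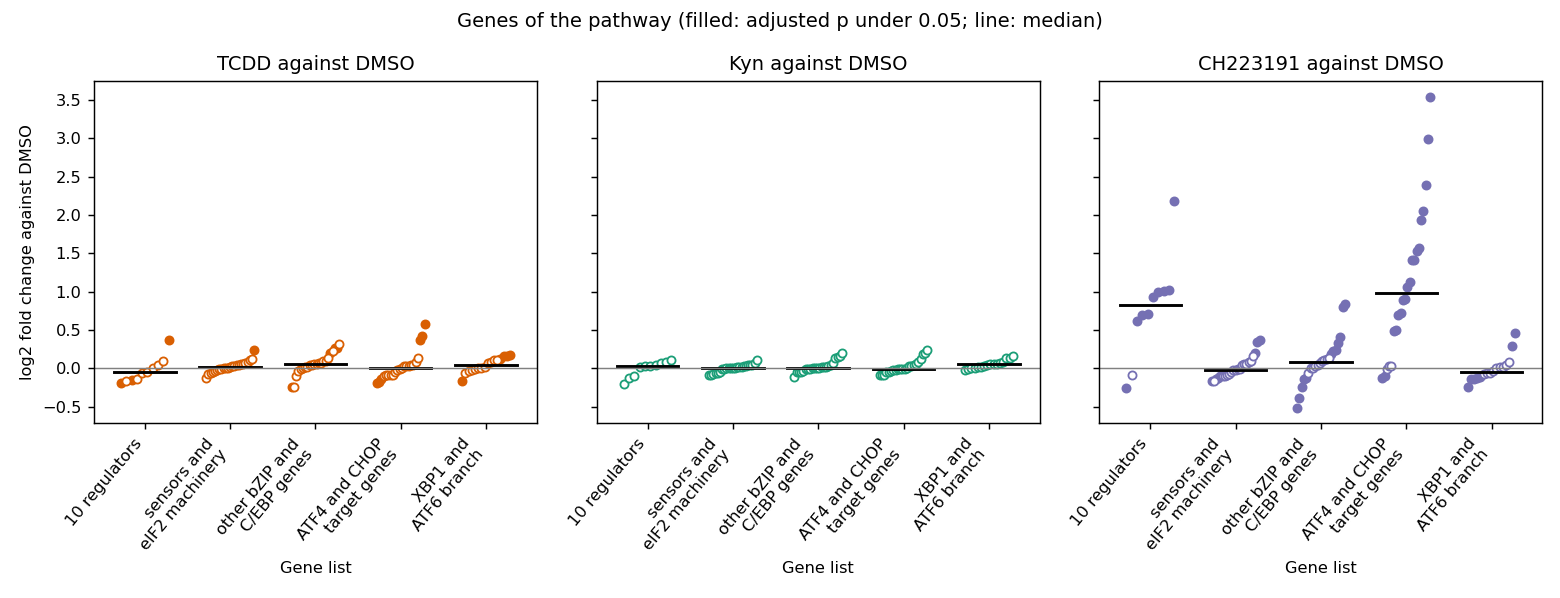
Log2 fold change against DMSO (vertical axis) of each tested gene in the 10 regulators and 4 lists of related genes, for TCDD, Kyn and CH223191; filled points had an adjusted p under 0.05 and lines are medians. With CH223191 the medians are 0.82 for the regulators and 0.98 for ATF4 and CHOP targets, and between -0.044 and 0.087 for the other 3 lists.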

How the data were processed

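The deposited files hold raw read counts per gene symbol for 12 libraries. Per the submitters' processing notes, reads were handled with Trim Galore, STAR 2.7.2b, SAMtools 1.9 and HTSeq on hg38. The labels' protocol names STAR 2.5.2b instead. The strand setting is not given in the sources used here.

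The analysis used edgeR 4.0.16 in R 4.3.3. filterByExpr (minimum count 10) removed genes with few reads, TMM factors (0.988 to 1.02) scaled the library totals, and log2 CPM took a prior count of 2. All 12 libraries and 13619 genes entered 1 quasi-likelihood fit, with a coefficient for each group. An adjusted p under 0.05 (Benjamini-Hochberg over all tested genes) was a call. With 3 libraries per group the common biological coefficient of variation was 3.22%. Intervals are 95%.

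Same-numbered libraries of different groups were checked for pairing. Their deviations from the group means correlated at -0.055 to 0.037 in 18 pairs, and at -0.053 to 0.083 in 36 other pairs, so the shared numbers were not taken as pairs. No pair of libraries of a group agreed within counting noise (variance 1.74 to 4.55 times Poisson).

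The alternatives changed 1 choice at a time: scaling by RLE factors or by library totals alone, testing without the low-count filter, DESeq2 1.42.0, a replicate block, a fit of just the 2 groups in question, and each library omitted in turn. The procedure was tested on simulated data. All 10 regulators are named, and of each related list up to 4 genes of smallest joint p. From those lists PPP1R15B, GDF15, ERO1A, CEBPZ, TRIB1 and TRIB2 were named in addition. The members and lists were chosen with earlier results of these data known.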

Additional observations from a re-analysis of the deposited data

How the results depend on the processing

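The number of the 10 regulators called was the same in all 18 alternatives for CH223191 against DMSO (9), TCDD against CH223191 (9) and Kyn against DMSO (0), and in the 17 run for the joint test (9). It was 2 to 3 for TCDD against DMSO, 3 to 4 for TCDD against Kyn and 8 to 10 for Kyn against CH223191. With the replicate block 9 regulators were called for CH223191 against DMSO, 3 for TCDD against DMSO and 9 for Kyn against CH223191, where ATF5 was lost (adjusted p = 0.052). The block changed no other call of a regulator. DESeq2 called 2 XBP1 and ATF6 branch genes in place of 1 for TCDD against Kyn; the cause was not tested.

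Some changes that did not pass turned direction with 1 library left out. Over these fits the log2 fold changes against DMSO were, with TCDD, -0.099 to 0.0074 for ATF5 and -0.13 to 0.13 for DDIT3. With Kyn they were -0.021 to 0.041 for ATF4, -0.25 to 0.13 for ATF3, -0.0050 to 0.11 for ATF5 and -0.011 to 0.065 for CEBPG. Between TCDD and Kyn they were -0.30 to 0.087 for ATF3, -0.031 to 0.056 for CEBPG and -0.051 to 0.0996 for NUPR1. ATF3 and DDIT3 had the lowest mean levels of the 10 genes (86 to 354 reads per library), and also the largest coefficients of variation beyond counting (8.17% and 6.32%).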
